A study of Mus musculus with 6 samples.

Results

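The genes that carry glycerol into triglyceride were followed in brown adipose tissue (BAT) of cold-exposed mice with and without toxin directed at regulatory T (Treg) cells. The 10 genes, taken from the series by their Entrez numbers and ordered from glycerol to triglyceride, were Aqp7, Gk, Gpd1, Gpam, Agpat2, Agpat3, Lpin1, Lpin2, Dgat1 and Dgat2, and all 10 were found among the 25206 features on the arrays. Whole BAT was profiled in 6 female FoxP3 DTR B6 mice, in which the Foxp3 locus drives the receptor for diphtheria toxin (DT), so that Treg cells of the treated animals are the intended target. Per the labels, mice were housed singly at 22°C for 1 week, were injected intraperitoneally on 2 consecutive days, and spent 2 days at 4°C from the first injection on. DT was given to 3 mice (DT 5, DT 9 and DT 16), and phosphate-buffered saline (PBS) to the other 3 (PBS 12, PBS 18 and PBS 20). The study's results name the same cold temperature as the labels, which was used here, although its methods name a milder one.

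Both groups therefore carried the receptor and were exposed to cold. Neither DT-injected mice without the receptor nor mice kept warm were analysed here, so each difference below includes any effect of the toxin itself, and none describes a response to cold. The ages of these mice were not given in the sources used here.

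Brown fat stores triglyceride in many small droplets and draws on it for heat. Glycerol leaves and enters the adipocyte through aquaglyceroporins, glycerol kinase turns it into glycerol 3-phosphate, and glycerol-3-phosphate dehydrogenase makes the same compound from a glycolytic intermediate. Fatty acids are then added one after the other, by glycerol-3-phosphate acyltransferases and by acylglycerophosphate acyltransferases, lipins remove the phosphate, and diacylglycerol acyltransferases attach the last fatty acid. Brown adipocytes are known for far more glycerol kinase than white adipocytes, which lets them reuse the glycerol of their own lipolysis.

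Promoter sequence was taken from RefSeq on mouse build GRCm38.p6, where 7 of the 10 genes had an entry, with 11 windows in all. Gpd1, Dgat1 and Dgat2 were not matched. The 250 bases before the transcription start were searched on both strands for CACGTG, the palindromic E-box that basic helix-loop-helix factors including the lipogenic regulators ChREBP and SREBP-1 can bind, for TCACNCCAC, a sterol response element, and for AGGTCA, the half-site of nuclear receptors. Windows of Gk and Lpin2 are shown because these genes had the largest differences between the groups, and that of Lpin1 because it is the other lipin among the 10 genes. Capitals mark CACGTG in Gk and Lpin2 and AGGTCA in Lpin1, and each sequence reads 5′ to 3′ on the strand of the gene.
Gk, chrX:85776820-85777069, minus strand: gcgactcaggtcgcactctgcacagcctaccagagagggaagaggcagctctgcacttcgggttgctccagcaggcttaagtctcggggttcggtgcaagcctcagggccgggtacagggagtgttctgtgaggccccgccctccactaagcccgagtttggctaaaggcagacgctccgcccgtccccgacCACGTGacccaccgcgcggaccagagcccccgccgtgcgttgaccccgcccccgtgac
Lpin1, chr12:16610967-16611216, minus strand: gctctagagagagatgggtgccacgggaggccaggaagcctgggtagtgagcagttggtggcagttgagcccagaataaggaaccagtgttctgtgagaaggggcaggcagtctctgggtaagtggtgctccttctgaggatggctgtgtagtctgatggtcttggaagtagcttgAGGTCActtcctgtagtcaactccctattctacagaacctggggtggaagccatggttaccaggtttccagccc
Lpin2, chr17:71183282-71183531, plus strand: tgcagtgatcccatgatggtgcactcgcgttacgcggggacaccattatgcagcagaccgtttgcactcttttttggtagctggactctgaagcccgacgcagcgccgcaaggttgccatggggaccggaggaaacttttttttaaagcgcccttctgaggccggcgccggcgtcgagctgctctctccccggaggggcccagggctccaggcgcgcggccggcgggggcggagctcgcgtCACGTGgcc
CACGTG began 58 bases before the start of Gk and 9 bases before 1 of the 3 starts of Lpin2, the one shown, and was not found before the other 2. These were 2 of the 11 windows, while 6.02% of all 32851 promoter windows held it. AGGTCA was found in 4 of the 11 windows, both of Aqp7, 1 of Gpam and that of Lpin1 (74 bases before the start), against 14% of all windows. The windows of Aqp7 overlap, and the match at position -223 from one start and -49 from the other is the same site, counted in both. TCACNCCAC was found in 0 of the 11 windows and in 1.05% of all windows. None of the 3 motifs lies inside another. A match describes these letters only.

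None of the 10 genes passed the test between DT and PBS. The test was limma on the deposited log2 values, with p-values adjusted by Benjamini-Hochberg across the 25206 features, and a gene is said to have changed where its adjusted p is under 0.05. Across the arrays 1.73% of features passed, 1.29% higher and 0.444% lower with DT, against 0 of the 10 genes. At an unadjusted p under 0.05, 1 of the 10 (Gk) stood out, against 13.3% of all features. In 4 of the 10 the DT mice did not overlap the PBS mice, against 18.6% of all features. Among the 262 features with a mean over 12, where most of the 10 genes lie, the groups did not overlap in 95. Of the 4 genes, Gk, Gpam and Dgat1 lay higher and Agpat3 lower with DT, and apart from Gk the gap between the groups was at most 0.035 on the log2 scale. The median difference of the 10 genes was -0.0057 (all features, -0.013), with 5 values above 0 and 5 below. Values are log2 expression, differences are DT minus PBS on that scale, and levels of different genes come from different probes, so a rank or a difference between genes describes array signal and not RNA abundance. In whole tissue, fewer cells of a type and less RNA per cell cannot be told apart.

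**Figure D1:**
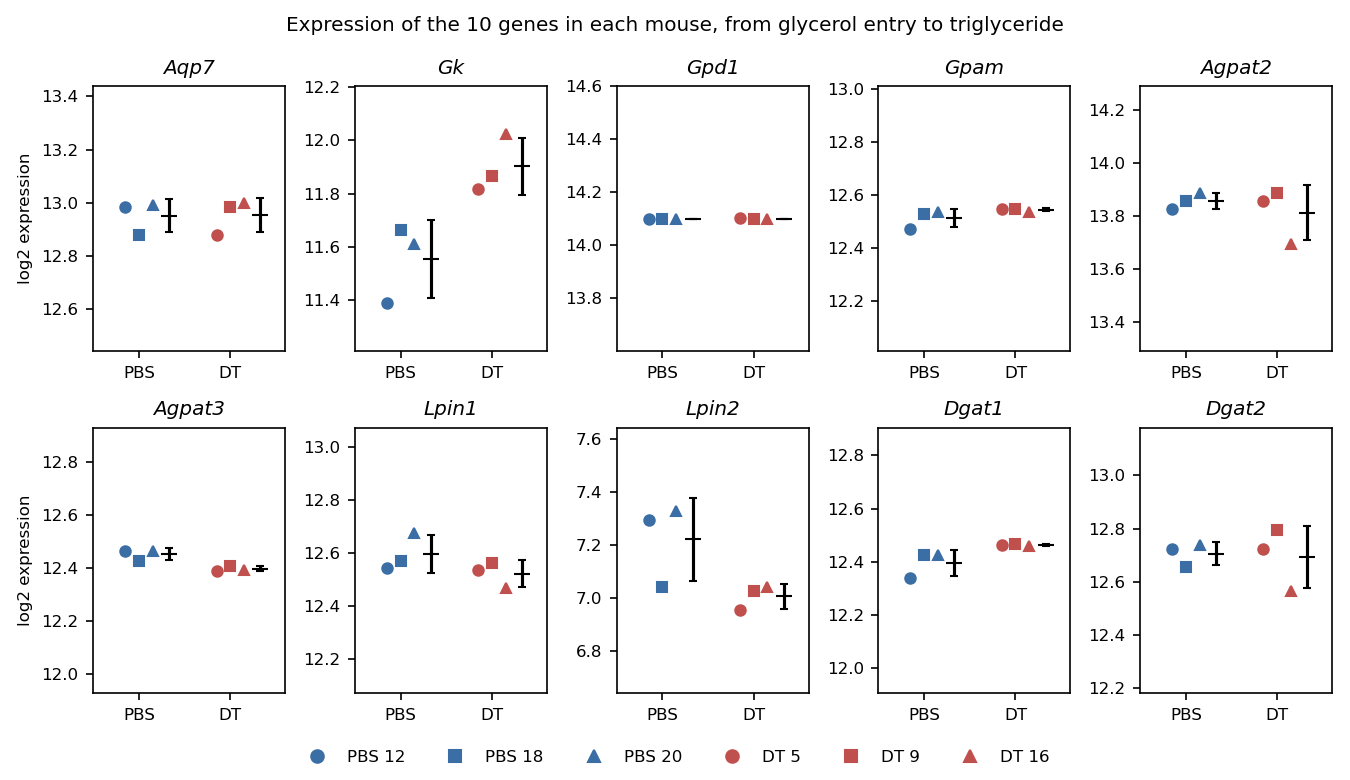
Log2 expression (vertical axes, each spanning 1 log2 unit) of the 10 genes in the 3 PBS and 3 DT mice, where each point is a mouse and the black bar is the mean ± SD. The DT mice lay above the PBS mice by a gap of 0.16 for Gk, while Gpd1 was at 14.10 in every mouse and Agpat2, Lpin1 and Dgat2 were lowest in DT 16.

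The observed difference in Aqp7 expression between the groups was smaller than the spread of the mice. The gene, which encodes the aquaglyceroporin of adipocytes (Entrez 11832, chromosome 4), measured 12.88, 12.98 and 13.00 in DT 5, DT 9 and DT 16 and 12.98, 12.88 and 12.99 in PBS 12, PBS 18 and PBS 20. Each group held 1 lower mouse and 2 higher ones, and the ranges overlapped almost fully. The means were 12.95 ± 0.065 and 12.95 ± 0.063 (SD, n = 3 each), with a 95% interval of the fold of 0.887 to 1.13.

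Gk had the largest difference of the 10 genes. Glycerol kinase (Entrez 14933, X chromosome) phosphorylates glycerol to glycerol 3-phosphate. Its levels were 11.82, 11.87 and 12.02 in DT 5, DT 9 and DT 16 and 11.39, 11.66 and 11.61 in PBS 12, PBS 18 and PBS 20. Every DT mouse lay above every PBS mouse, with DT 16 highest and PBS 12 lowest. The means of 11.90 ± 0.11 and 11.55 ± 0.15 (SD, n = 3 each) differed by 0.35 (SE 0.10), 1.27-fold, with a 95% interval of the difference of 0.11 to 0.59. In limma the unadjusted p was 0.0101 and the adjusted p 0.194, so Gk did not pass. Gk passed in 1 alternative, a robust prior spread that follows signal intensity (adjusted p = 0.0470 in limma), and its adjusted p ran from 0.0470 to 0.455 over all alternatives. The difference stayed above 0 without any single mouse, from 0.27 without PBS 12 to 0.40 without PBS 18.

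Gpd1, the cytosolic glycerol-3-phosphate dehydrogenase (Entrez 14555, chromosome 15), had the strongest signal of all features on every array. Its value was 14.10 in all 6 mice. Quantile normalization gives the top feature of each array the same value, so the equality of the groups is set by the processing and neither a rise of Gpd1 nor a fall that left it at the top could be seen.

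At the first acyltransferase step the difference was smaller than its limma SE and did not pass. Gpam, the mitochondrial glycerol-3-phosphate acyltransferase (Entrez 14732, chromosome 19), measured 12.55, 12.55 and 12.54 in the DT mice and 12.47, 12.53 and 12.54 in the PBS mice. The groups were apart by only 0.0020, and PBS 12 was the one clearly lower mouse. The difference was 0.033 (SE 0.066, limma adjusted p = 0.902), and the interval of the fold ran from 0.919 to 1.14. By moderation, limma draws each SE towards the spread of all features, whose median residual SD was 0.123. That of Gpam itself was 0.0245, so its SE and interval are wider than its own mice alone would give.

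At the second acyltransferase step the 2 enzymes lay slightly lower with DT, and neither passed. Agpat2 (Entrez 67512, chromosome 2), whose loss causes lipodystrophy in mice and people, measured 13.86, 13.89 and 13.70 in DT 5, DT 9 and DT 16 and 13.83, 13.86 and 13.89 in PBS 12, PBS 18 and PBS 20. DT 16 alone was low, and the other 2 DT mice lay within the PBS range or at its top. The difference of -0.044 (SE 0.079) became 0.015 without DT 16. Agpat2 ranked between 6 and 14 among all features, where the common top of the distribution also leaves little room for a rise. Agpat3 (Entrez 28169, chromosome 10), an acyltransferase that also places polyunsaturated fatty acids in phospholipids, measured 12.39, 12.41 and 12.39 in the DT mice and 12.47, 12.43 and 12.47 in the PBS mice. All 3 DT mice were below all 3 PBS mice, by a gap of 0.020. The difference was -0.056 (SE 0.065), with a limma adjusted p of 0.805 and an interval of the fold of 0.865 to 1.07. In the fit without moderation its unadjusted p was 0.0164 and its adjusted p 0.300.

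Both lipins, the phosphatidate phosphatases of triglyceride synthesis, were lower on average with DT, and in both the groups overlapped. Lpin1 (Entrez 14245, chromosome 12), the main lipin of adipose tissue, measured 12.54, 12.56 and 12.47 in DT 5, DT 9 and DT 16 and 12.54, 12.57 and 12.68 in PBS 12, PBS 18 and PBS 20. DT 16 was the lowest and PBS 20 the highest mouse, while the other 4 lay between 12.54 and 12.57. The difference was -0.074 (SE 0.074, interval of the fold 0.842 to 1.07).

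Lpin2 (Entrez 64898, chromosome 17) had the second largest difference. Its levels were 6.95, 7.03 and 7.04 in DT 5, DT 9 and DT 16 and 7.29, 7.04 and 7.33 in PBS 12, PBS 18 and PBS 20. PBS 12 and PBS 20 were above all DT mice, whereas PBS 18 equalled DT 16. The means of 7.01 ± 0.047 and 7.22 ± 0.16 (SD, n = 3 each) differed by -0.21 (SE 0.095), 0.862-fold, with a 95% interval of 0.739 to 1.01. The limma adjusted p was 0.404. PBS 18 moved this value most, and without it the difference was -0.30 (limma unadjusted p = 0.00846).

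The last step was carried by Dgat1 and Dgat2, 2 diacylglycerol acyltransferases of unrelated sequence. Dgat1 (Entrez 13350, chromosome 15) measured 12.46, 12.47 and 12.46 in the DT mice and 12.34, 12.42 and 12.42 in the PBS mice. All DT mice were higher, by a gap of 0.035, with PBS 12 the lowest. The difference of 0.067 (SE 0.067) had a limma adjusted p of 0.771 and an interval of the fold of 0.939 to 1.17. Dgat2 (Entrez 67800, chromosome 7) measured 12.72, 12.79 and 12.56 in DT 5, DT 9 and DT 16 and 12.72, 12.66 and 12.74 in PBS 12, PBS 18 and PBS 20. DT 9 was the highest and DT 16 the lowest mouse, so that the PBS range lay inside the DT range. The difference was -0.012 (SE 0.084) and turned to 0.053 without DT 16.

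**Figure D2:**
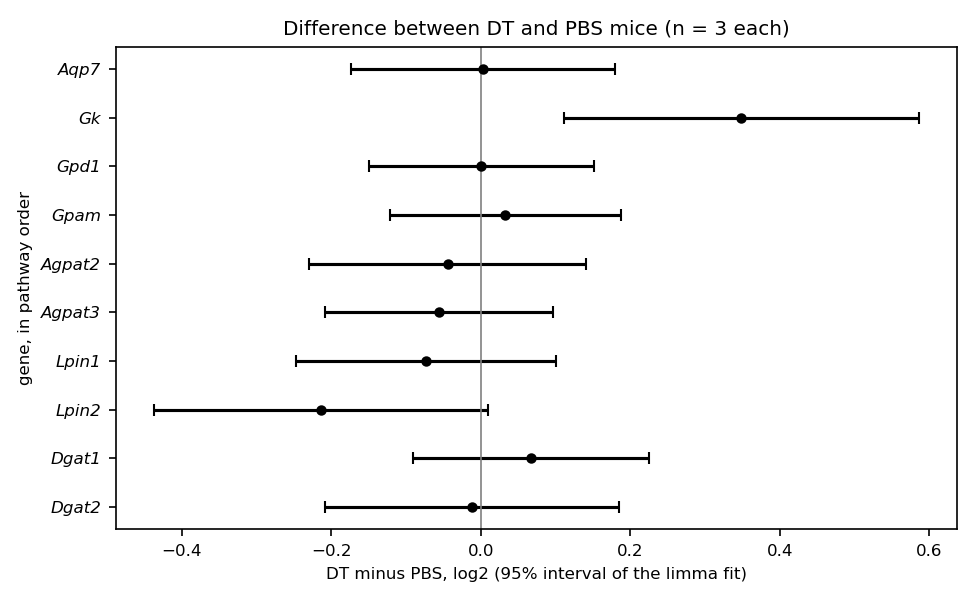
Difference between DT and PBS mice (horizontal axis, log2) for the 10 genes in pathway order, where points are the fitted differences and bars the 95% intervals of the limma fit. Only the interval of Gk (0.11 to 0.59) excludes 0, before adjustment for the number of features. The intervals draw on the shared spread of all features, which widens those of genes that vary little, such as Gpam, Agpat3 and Dgat1. That of Gpd1 reflects this shared spread, as its values hardly vary.

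For Aqp7, Gpam, Agpat2, Agpat3, Lpin1, Dgat1 and Dgat2, the 95% intervals of the fold lay between 0.842 and 1.17. The median size of a difference was 0.050 in the 10 genes and 0.092 in all features, yet it was 0.051 in the 262 features with a mean over 12, a range that holds 8 of the 10 genes. In these 262 features, 0.763% passed the test. The residual spread behaved alike, with a median SD of 0.062 in the 10 genes, 0.123 in all features and 0.050 in the bright ones.

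Genes working at the same step, and Gk and Gpd1, which make the same product by different reactions, were compared within each mouse. The value was the log2 difference of the pair. It was tested with a 2-sided exact permutation test over 20 relabelings, whose smallest possible p is 0.1. Gk minus Gpd1, the pair that supplies glycerol 3-phosphate, was -2.20 ± 0.11 in DT and -2.55 ± 0.15 in PBS mice (exact p = 0.1, 0.4 after adjustment over the 4 pairs). As Gpd1 was constant by construction, this value is that of Gk. Lpin1 minus Lpin2 was 5.52 ± 0.081 in DT and 5.38 ± 0.14 in PBS mice (exact p = 0.2, adjusted 0.4). Agpat2 minus Agpat3 differed by 0.012 (exact p = 1) and Dgat1 minus Dgat2 by 0.079 (exact p = 0.5, adjusted 0.667). This test cannot give a p under 0.05 with 3 mice against 3.

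Beyond the 10 genes, 63 of 64 other genes of the pathway were measured, in 10 lists. Of these, 3 passed the test, all lower with DT, namely the regulators Mlxipl and Srebf1 and the acyl-CoA synthetase Acsl3. At an unadjusted p under 0.05 there were 16, of which 5 were higher and 11 lower, and the median difference was -0.031. Among all features 1.73% passed, 0.444% passed in the lower direction and 13.3% had an unadjusted p under 0.05.

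**Figure D3:**
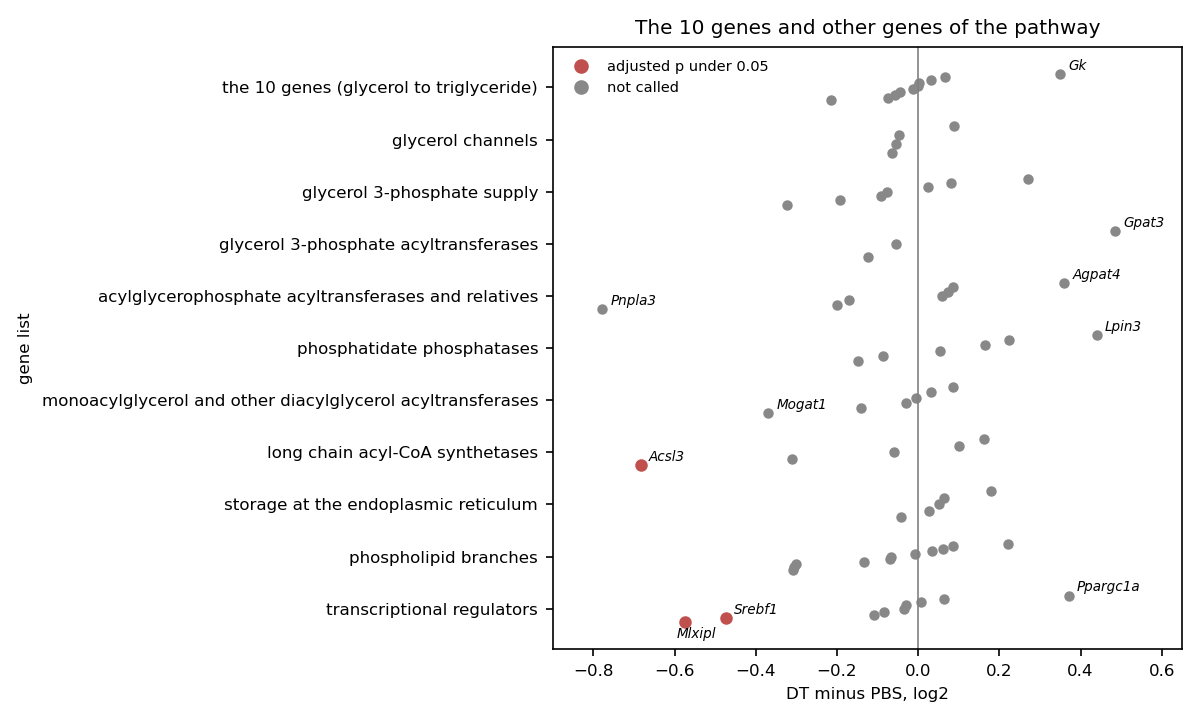
Difference between DT and PBS mice (horizontal axis, log2) for each of the 10 genes (top row) and the 63 other pathway genes (rows below, 1 list each), with 1 point per gene and genes with an adjusted p under 0.05 in red. The 3 red points are Acsl3 (-0.68), Mlxipl (-0.57) and Srebf1 (-0.47), and Gk (0.35) stands to the right of the other 9 genes in its row.

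Among the transcriptional regulators, 2 of 9 fell. Mlxipl encodes ChREBP, the carbohydrate-responsive activator of lipogenic genes. It measured 11.15, 10.95 and 10.92 in DT 5, DT 9 and DT 16 and 11.59, 11.59 and 11.56 in PBS 12, PBS 18 and PBS 20, with all DT mice below all PBS mice. The difference was -0.57 (SE 0.083, limma adjusted p = 0.0235). Srebf1, which encodes SREBP-1, measured 9.86, 9.88 and 9.81 in the DT mice and 10.41, 10.21 and 10.34 in the PBS mice. These groups were also apart, with a difference of -0.47 (SE 0.079, limma adjusted p = 0.0371). In the 6 limma fits without 1 mouse, Mlxipl passed only without DT 5 and Srebf1 only without PBS 18, and the adjusted p reached 0.103 and 0.152, respectively.

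Of the 5 long chain acyl-CoA synthetases, which activate fatty acids for esterification, only Acsl3 passed. Acsl3 measured 8.06, 7.76 and 8.09 in DT 5, DT 9 and DT 16 and 8.64, 8.84 and 8.49 in PBS 12, PBS 18 and PBS 20, and the groups were apart by 0.40. The difference was -0.68 (SE 0.13), with a limma adjusted p of 0.0498, just under the threshold. It did not pass in any of the 6 fits without 1 mouse (adjusted p from 0.0932 to 0.165). It also lost its call with cyclic loess (adjusted p = 0.0620 in limma) and with array weights (0.0536), and over all alternatives its adjusted p ran from 0.0103 to 0.253. Acsl5 measured 12.95, 12.84 and 12.71 in the DT mice and 13.08, 13.23 and 13.11 in the PBS mice. Every DT mouse was lower, with a difference of -0.31 (SE 0.088, limma unadjusted p = 0.00910, adjusted p = 0.185). Acsl1 differed by 0.10, with all DT mice higher, and did not pass.

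No gene passed in the other 8 lists. For glycerol 3-phosphate supply, Pck1, the enzyme of glyceroneogenesis, measured 13.25, 13.14 and 13.17 in the DT mice and 12.76, 13.02 and 12.98 in the PBS mice, so all DT mice were higher (0.27, limma adjusted p = 0.255). Pgp, a phosphatase that can hydrolyse glycerol 3-phosphate, differed by -0.32 (adjusted p = 0.233). Of the glycerol channels other than Aqp7, Aqp11 differed by 0.087 and Aqp3 by -0.053. Gpat3, an acyltransferase at the endoplasmic reticulum, measured 8.09, 7.94 and 8.46 in the DT mice and 7.77, 7.76 and 7.50 in the PBS mice. All DT mice were higher, with a difference of 0.48 (SE 0.15, limma adjusted p = 0.213). Gpat4 of the same list had means of 10.69 in DT and 10.75 in PBS mice, a difference of -0.054 with overlapping groups. Gpat2 differed by -0.12.

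Other genes of later steps did not pass either. Lpin3, the third lipin, measured 6.04, 6.02 and 6.41 in the DT mice and 5.82, 5.89 and 5.45 in the PBS mice. Its difference of 0.44 (limma adjusted p = 0.270) was opposite in sign to those of Lpin1 and Lpin2. Plpp2, a lipid phosphate phosphatase, differed by 0.22. Pnpla3, a lipid droplet protein, measured 10.50, 10.06 and 9.58 in the DT mice and 11.11, 10.72 and 10.65 in the PBS mice, a difference of -0.78 with an SE of 0.23 (limma adjusted p = 0.208). Agpat5 differed by -0.20. Mogat1, which acylates monoacylglycerol, differed by -0.37 (limma adjusted p = 0.193), with all DT mice lower, and Mogat2 by -0.14.

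Of 5 genes of lipid storage at the endoplasmic reticulum and droplet, none passed. The droplet coat gene Plin2 differed by 0.052 and Fitm2 by 0.065, while Fitm1 differed by 0.18 with a wide interval of the fold, 0.580 to 2.21. In the phospholipid branches, which draw on the same phosphatidate and diacylglycerol, Pcyt2 and Pisd differed by -0.30 and -0.31 (limma adjusted p = 0.110 and 0.114). In each of them all DT mice were lower. Selenoi of the same list differed the other way, by 0.22, with overlapping groups (limma adjusted p = 0.360). Of the 11 genes in this list, 4 had a difference above 0 and 7 below.

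The make-up of the tissue was read from marker genes. The 12 brown adipocyte markers were all above the array median of 5.10 and none passed. Ucp1, the uncoupling protein of brown fat, ranked between 2 and 4 on every array, where the fixed top of the range limits what can be seen, as for Gpd1. Of the 12 markers, 6 differed above 0 and 6 below. Cidea (-0.086) and Cox7a1 (-0.043) were lower in every DT mouse, and Fabp4 (0.10) was higher in every DT mouse. Dio2, the deiodinase that activates thyroid hormone in brown fat, was also higher in every DT mouse (0.40, fold interval 1.05 to 1.66, limma adjusted p = 0.278). It was the one brown adipocyte marker whose interval excluded 0. By RT-PCR in larger groups of mice, the study reports a fall of thermogenic genes in BAT of cold-exposed Treg-deficient mice. That direction is opposite to the one of Dio2 here and the same as that of Cidea. Its panel includes Dio2 and Cidea, but its text gives no value for either alone. Its methods list Dio2 among the genes measured by RT-PCR to check the array results. The summed level of the 10 genes, as the log2 of their added linear values, was 16.14 to 16.19 in DT and 16.14 to 16.19 in PBS mice, a sum that is largely set by Gpd1 and other genes at the fixed top of the range. Of the macrophage markers, 7 of 12 rose, with a summed level of 12.55 to 12.66 in DT and 10.83 to 11.10 in PBS mice, and 4 of 6 fibroblast markers rose, with summed levels of 12.72 to 12.89 and 12.04 to 12.45. No endothelial (9), white adipocyte (6) or blood (5) marker passed. None of the 10 skeletal muscle markers passed, but their mean was 5.86 in DT 16, the mouse lowest for Agpat2, Lpin1 and Dgat2 and highest for Gk and Aqp7, against 9.02 and 9.21 in DT 5 and DT 9. In PBS 12, PBS 18 and PBS 20 it was 7.16, 8.99 and 7.78. With this muscle mean as a covariate Gk differed by 0.35 and Lpin2 by -0.21, as without it. All 7 T cell markers lay below the array median and none passed, with 3 differences above 0 and 4 below. Foxp3 was at 4.30 to 4.49 in DT and 4.41 to 4.72 in PBS mice. Cd4 was the only one of the 7 that was lower in every DT mouse (-0.30, limma unadjusted p = 0.0108, adjusted p = 0.201). The loss of Treg cells could thus not be read from these arrays. The study itself reports that DT depleted Foxp3-expressing cells, from RT-PCR of Foxp3 in BAT and spleen. The part of macrophages and fibroblasts in the differences of Gk, Lpin2, Mlxipl, Srebf1 and Acsl3 was not tested.

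**Figure D4:**
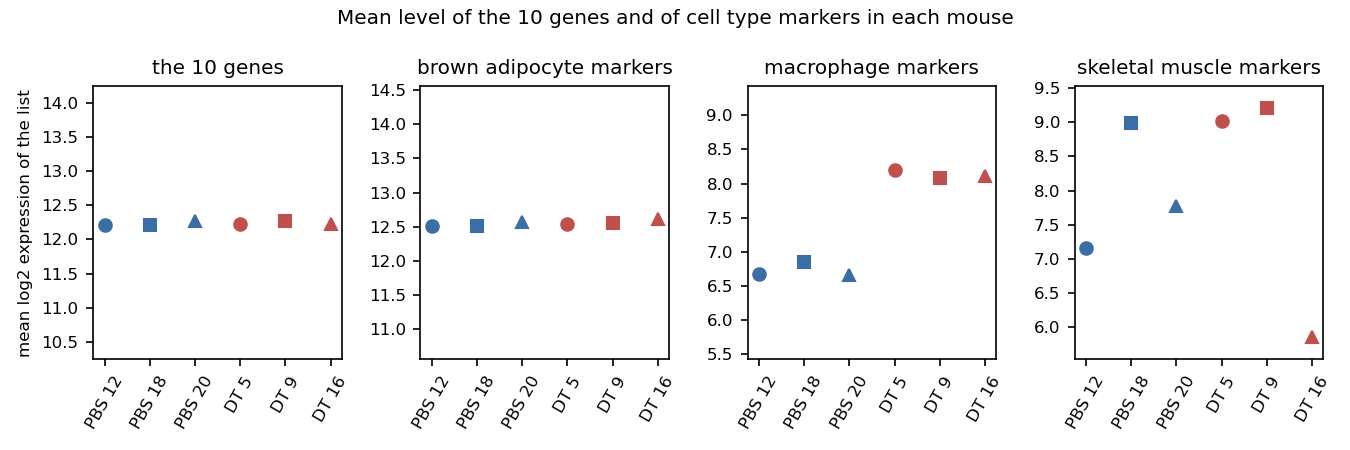
Mean log2 expression (vertical axes, each spanning 4 log2 units) of the 10 genes and of 3 marker lists in each mouse, PBS in blue and DT in red. Macrophage markers lay at 8.08 to 8.20 in DT and 6.66 to 6.86 in PBS mice, brown adipocyte markers at 12.51 to 12.61 in all 6, and skeletal muscle markers varied within both groups.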

How the data were processed

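BAT RNA of 6 mice was hybridised to Affymetrix arrays, 1 per mouse. The authors grouped probes by Entrez gene with custom chip definitions and deposited 1 log2 expression value per gene and array. The submitters' processing notes name RMA, and the methods name quantile normalization. Whether the array type given in the methods fits the features was not checked. Sorted values were identical in 5 arrays and within 0.00179 in the other, so shifts of all genes are removed and the brightest genes are compressed. Arrays have no read depth, and their number limits precision.

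Groups came from sample titles, and the series' design calls the mice biological replicates. Symbols were assigned to 23740 of 25206 features by Entrez number through RefSeq, and Gk was matched this way only. DT was compared with PBS by limma (version 3.58.1, R 4.3.3; lmFit and eBayes), 2-sided, tested on simulated data. Named were the 10 genes, the called genes of each pathway list (at most 4) or else its 2 with the smallest p, and up to 3 markers per list. Acsl1, Acsl5, Cd4, Cidea, Cox7a1, Dio2, Fitm1, Foxp3, Gpat4 and Selenoi were added after their values were seen. The members and lists were chosen with earlier results of these data known. The alternatives were 3 normalizations, 2 filters on dim features, 3 variance models, 2 call rules, leaving out each mouse, and a muscle covariate. The authors' mixed-model analysis was not repeated.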

Additional observations from a re-analysis of the deposited data

How the results depend on the processing

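With 3 mice a group, small changes are below detection. At the top of the range rises are compressed, and a fall shows only with a loss of rank. Among the 262 features with a mean over 12, differences ran from -0.98 to 0.60, and 2 passed. The 436 features called became 659 (466 higher, 193 lower) with an intensity trend and robust prior, 736 at an adjusted p under 0.1, 177 by a 2-fold change with an unadjusted p under 0.01, and 0 without moderation, where 2986 had an unadjusted p under 0.05. Without 1 mouse they ranged from 135 (without DT 9) to 374 (without PBS 18), and the 112 lower calls were 10 to 15 without DT 9, DT 16, PBS 12 or PBS 20. Of the 10 genes, 1 (Gk) was called with the trend and prior and 0 in each of the other alternatives, with 2 at an unadjusted p under 0.05 without moderation. The 3 calls among other pathway genes became 5 with the trend and prior (Acsl5 and Pcyt2 added), 0 without moderation and by the 2-fold rule, 2 with cyclic loess and with array weights (Acsl3 lost), 0 to 1 without 1 mouse, and 1 (Mlxipl) with the muscle covariate, an alternative chosen after seeing the data. Of 150 alternative values of the 10 genes, 8 changed sign, 2 (both of Gpd1) were 0, and 1 (Gk) passed the threshold. Cyclic loess gave -0.0024 for Aqp7 and -0.014 for Gpd1. Without 1 mouse, Aqp7 ranged from -0.033 to 0.040, Agpat2 from -0.081 to 0.015 (without DT 16), Dgat2 from -0.062 to 0.053 (0.0043 without PBS 20), Aqp11 from -0.0026 to 0.23, and the pair Agpat2 minus Agpat3 from -0.020 to 0.069. The cause was not tested. Other scalings moved the median of all features to between -0.013 and -0.0014. No paired analysis was possible because the groups share no animal number.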
